A study of Mus musculus with 18 samples.

Results

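The 35 interferon-stimulated genes described here are a named list of mouse genes whose transcription is switched on by interferons, and they were followed library by library in 3 tissues. The list, and those of other genes below, were chosen with earlier results of these data known. Their shares set beside those of all genes are therefore descriptions. The members were found by symbol, and all 35 were matched to 1 Ensembl identifier each among the 53465 identifiers counted. They comprise 4 sensors of foreign nucleic acid, 3 transcription factors, 19 antiviral effectors, 4 genes of the ubiquitin and ubiquitin-like system and 5 interferon-inducible GTPases. RNA was sequenced from skeletal muscle (SKM), white adipose tissue (WAT) and brown adipose tissue (BAT) of wild-type C57BL/6J mice. One arm received quercetin, a plant flavonol, at 0.125 mg/kg by oral gavage in 100 µL of 10% PEG400 in PBS. The other arm received 10% PEG400 in PBS alone as the vehicle, so PEG400 was given to both arms. Each of the 6 combinations of tissue and arm had 3 libraries, numbered 1 to 3 in the titles, which made 18 libraries. The series describes the treatment as long-term and low-dose. Which depot the white fat came from, and how old the sequenced mice were, of which sex and for how long treated, is not given in the sources used. Nothing in the labels says that a number marks 1 mouse across tissues, or that the libraries of a group come from separate mice, so a p-value here reflects the spread between libraries, which may be technical.

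Type I interferons are secreted when a cell detects foreign or misplaced nucleic acid, and they act on almost every cell type through a receptor that activates the kinases JAK1 and TYK2. An activated complex that contains STAT2 and IRF9 enters the nucleus and binds the interferon-stimulated response element (ISRE) in front of its target genes, while interferon gamma acts mainly at gamma-activated sites (GAS). In fat and muscle, adipocytes, muscle fibres and the immune cells that live among them can all respond, so a bulk RNA value adds these sources together. In such samples, fewer responding cells and less RNA per cell cannot be told apart.

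The response element was visible in the DNA in front of these genes. RefSeq promoter windows on GRCm38.p6, from 250 bases before to 50 bases after a start site, were matched by symbol for 26 of the 35 members. The ISRE core searched was GAAA, any 2 bases and GAAA again, or TTTC, any 2 bases and TTTC when it lies on the other strand, and overlapping matches were counted. It was present in a window of 15 of the 26 matched members (57.7%), against 3.99% of all 27025 genes with windows of that length (3.44% of 32851 windows). The GAS motif TTCNNNGAA, which reads the same on both strands, was present for 6 of the 26 (23.1%), against 9.55% of all genes, and its matches can overlap those of the ISRE core. Of the 24 ISRE core matches, with overlapping ones counted separately, 21 began upstream of the start site and 19 began within 150 bases of it. The windows hold 250 bases before the start and 50 after it, so most matches placed at random would also begin upstream. No such positions were taken over all windows, so these counts say nothing particular to the members. The 200 bases upstream of 5 members with the motif are shown because results below turn on them, with Trim25, the gene that stood apart from most of the others, for contrast. Each is written 5′ to 3′ on the strand of its gene, with bases of the ISRE core in capitals.
Isg15: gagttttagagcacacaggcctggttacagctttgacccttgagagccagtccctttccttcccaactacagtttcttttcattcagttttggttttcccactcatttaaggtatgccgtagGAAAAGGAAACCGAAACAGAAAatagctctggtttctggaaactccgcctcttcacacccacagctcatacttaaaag
Ifit1: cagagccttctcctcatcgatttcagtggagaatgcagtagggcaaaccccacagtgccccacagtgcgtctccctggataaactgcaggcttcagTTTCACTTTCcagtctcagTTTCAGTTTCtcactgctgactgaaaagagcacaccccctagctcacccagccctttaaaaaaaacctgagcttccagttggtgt
Ifit3: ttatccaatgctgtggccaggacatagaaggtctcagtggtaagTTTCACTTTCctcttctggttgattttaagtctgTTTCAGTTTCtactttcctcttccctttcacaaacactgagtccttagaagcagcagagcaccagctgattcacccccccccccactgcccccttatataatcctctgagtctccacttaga
Rsad2: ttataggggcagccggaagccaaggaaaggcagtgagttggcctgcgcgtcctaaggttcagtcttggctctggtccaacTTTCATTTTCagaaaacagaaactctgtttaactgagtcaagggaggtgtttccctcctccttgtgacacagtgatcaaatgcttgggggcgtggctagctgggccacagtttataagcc
Gbp2: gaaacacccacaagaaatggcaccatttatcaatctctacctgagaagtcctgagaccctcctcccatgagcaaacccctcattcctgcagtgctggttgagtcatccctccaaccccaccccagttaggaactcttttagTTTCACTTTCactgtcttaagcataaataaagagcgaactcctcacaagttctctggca
Trim25: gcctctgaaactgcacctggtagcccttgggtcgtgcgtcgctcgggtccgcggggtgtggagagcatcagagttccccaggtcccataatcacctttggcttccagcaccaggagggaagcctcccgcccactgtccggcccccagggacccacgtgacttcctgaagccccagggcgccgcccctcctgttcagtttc

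Isg15 encodes a ubiquitin-like protein that is attached to other proteins, and its window at chr4:156200819-156201018 on the minus strand held 3 overlapping matches, beginning 78, 72 and 66 bases before the start. Ifit1 (chr19:34640689-34640888, plus strand) and Ifit3 (chr19:34583329-34583528, plus strand), whose proteins bind foreign RNA, held 2 matches each. Rsad2 (chr12:26456453-26456652, minus strand), which encodes the antiviral enzyme viperin, and Gbp2 (chr3:142620463-142620662, plus strand), a guanylate-binding GTPase, held 1 match each. Trim25 (chr11:88999203-88999402, plus strand), a ubiquitin ligase that acts on the RNA sensor encoded by Ddx58, held no match, which says only that these letters were not in its window.

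Between 8436308 and 12311345 counts were assigned to genes in each library, and between 1335 and 109160 of them fell on the 35 members. Levels are given as CPM, counts scaled to a common library total with the TMM factors of all 18 libraries. In these units 3 counts, taken as the upper limit that a count of 0 allows, came to between 0.210 and 0.418 CPM. These limits cover counting error only. Several libraries stood apart in their cell type markers. The summed CPM of 8 skeletal muscle markers was 70227 to 125367 in SKM, 13.7 to 1139 in WAT and 5.40 to 4917 in 5 of the BAT libraries, but 32255 in BAT quercetin 3. In that library the 6 brown adipocyte markers summed to 3072 CPM, against 8112 to 11267 in the other 5. WAT vehicle 1 and WAT quercetin 2 had 1.07 and 2.81 CPM of 7 B cell markers, where the other 4 WAT libraries had 612 to 3286, and these 2 were the WAT libraries from flow cell H7GKJDSXX. WAT vehicle 2 had 512 CPM of 6 adipocyte markers, the lowest of WAT and within the 457 to 5559 CPM of SKM. It also held 2734 CPM of B cell markers, 1610 CPM of 4 plasma cell markers and 1139 CPM of muscle markers. SKM quercetin 2 had 25844 CPM of 4 seminal vesicle markers, which were at or below 0.601 CPM in all other libraries.

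The members were expressed in every tissue, and their order by level was led by the same gene throughout. Per kilobase of exon, Bst2, which encodes tetherin, a membrane protein that holds budding viruses on the cell, had the highest median over 6 libraries in each tissue, at 32.0 CPM per kb in SKM, 147 in WAT and 59.6 in BAT. Isg15 followed in WAT at 47.4 CPM per kb and in BAT at 17.8, and Igtp, an immunity-related GTPase, followed in SKM at 8.88. The lowest medians were those of Mx1 in SKM at 0.201 CPM per kb, Ifi44 in WAT at 1.46 and Oas3 in BAT at 0.294. Between these ends the order was close, as with Irf7 and Iigp1 in BAT, whose medians were 7.69 and 7.68 CPM per kb. C57BL/6J mice are known to carry a truncated Mx1 allele, and the annotation lists Mx2 as a polymorphic pseudogene, so the values of these 2 antiviral GTPase genes describe transcripts. In SKM, Mx1 was under the count filter and was not tested there.

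**Figure D1:**
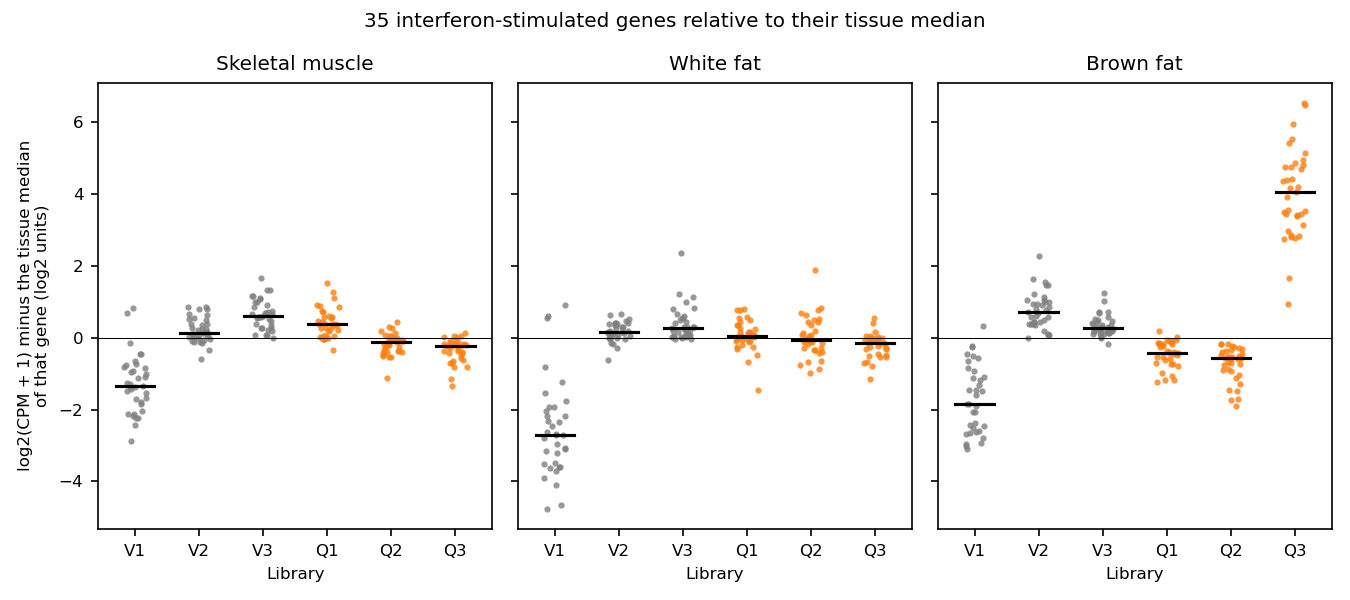
Each point is 1 of the 35 genes in 1 library, plotted as log2(CPM + 1) minus that gene's median over the 6 libraries of the tissue, with grey for vehicle, orange for quercetin and a black bar for the median of the 35 genes. The cloud of vehicle 1 lies lowest in each tissue and that of brown fat quercetin 3 lies highest, at 35 of 35 genes.

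In each tissue the library numbered vehicle 1 held the lowest levels of most members. The 3 libraries of that number may share a mouse, which the labels do not say, so they need not be independent of each other. It was the lowest of 6 libraries for 30 of 34 members tested in SKM, where 38.0% of all tested genes were lowest in it. The count was 32 of 35 members in WAT, against 33.2% of all tested genes, and 28 of 35 in BAT, against 23.8%. Of 34 members tested in all 3 tissues, 27 were lowest in vehicle 1 in every one of them, as were 6.68% of the 12261 genes tested in all 3. The members were chosen with earlier results of these data known, so these shares describe and do not test. The summed CPM of the 35 members was 159 in SKM vehicle 1 against 259 to 572 in the other 5 libraries, 503 in WAT vehicle 1 against 1319 to 2056, and 271 in BAT vehicle 1 against 408 to 11920.

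Irf7, the transcription factor that amplifies interferon production, shows the depth of this gap. In SKM its level was 0.832, 18.04 and 20.3 CPM in vehicle 1, 2 and 3, and 15.2, 8.26 and 10.0 CPM in quercetin 1, 2 and 3. In WAT it was 7.04, 171 and 167 CPM in the vehicle libraries and 177, 113 and 110 CPM in the quercetin libraries. Vehicle 1 was far below the other 5 libraries in both tissues. Of those 5, the 2 vehicle libraries lay above the quercetin libraries in SKM and within their range in WAT. Zbp1, a sensor of left-handed nucleic acid that can trigger cell death, had 0.960 CPM in WAT vehicle 1 and 47.8 to 66.5 CPM in the other 5 WAT libraries. Its SKM vehicle 1 value of 0.238 CPM lay under the limit that a count of 0 allows there, 0.357 CPM, as did those of Mx1, Oas3 and Oas1a, which had no count, and of Dhx58 and Ifi44. Ifit3 stood at 0.357 CPM, on that limit.

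Over the members with more than 3 counts in vehicle 1, the median of the other 5 libraries was 3.80 times the vehicle 1 value in SKM (28 members), 8.87 times in WAT (33 members) and 5.56 times in BAT (33 members), as medians over members. These are descriptions of single libraries and have no replicate check. The 7 members at or under 3 counts in SKM vehicle 1 and the 2 in each fat are left out of these ratios, and they are all members that were lowest there. Markers of other cells differed in these libraries too, but not in 1 direction. The 8 macrophage markers summed to 107 CPM in SKM vehicle 1, below the 259 to 778 CPM of the other 5 SKM libraries, yet to 679 CPM in BAT vehicle 1, above the 186 to 343 CPM of the other 5 BAT libraries. WAT vehicle 1 had 785 CPM of macrophage markers, within the range of 692 to 1779 CPM of the others. Its adipocyte markers summed to 33269 CPM, and those of the other WAT libraries ranged from 512 CPM in vehicle 2 to 13022 CPM in quercetin 2. Its endothelial markers summed to 3296 against 340 to 939 CPM, and its red blood cell markers to 793 against 10.3 to 112 CPM. It had 1.07 CPM of B cell markers and 8.32 CPM of 7 T cell markers, against up to 3286 and 703 CPM. WAT quercetin 2 was as low, with 2.81 and 7.92 CPM. The part of cell composition in the low vehicle 1 values was not tested.

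A few members went against this pattern, of which Trim25 and Isg20 did so in all 3 tissues. Trim25 had 54.9, 32.6 and 74.5 CPM in the SKM vehicle libraries and 35.1, 29.6 and 27.2 CPM in the SKM quercetin libraries. In WAT its level was 233, 162 and 118 CPM in the vehicle libraries, which made vehicle 1 the highest of 6, and 127, 97.1 and 74.4 CPM in the quercetin libraries. Rsad2 was also highest in WAT vehicle 1, with 41.2, 21.9 and 33.2 CPM in the vehicle libraries and 9.25, 38.1 and 15.2 CPM in the quercetin libraries. Isg20, an RNA exonuclease, had 35.1, 33.0 and 23.2 CPM against 24.1, 18.4 and 15.9 CPM. In SKM the exceptions were Rsad2, Isg20, Trim25 and Mx2, which had no count in SKM quercetin 3. In BAT they were Trim25, Isg20, Mx1, Mx2, Ifit2, Oasl1 and Trim30a, all with a quercetin library lowest.

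**Figure D2:**
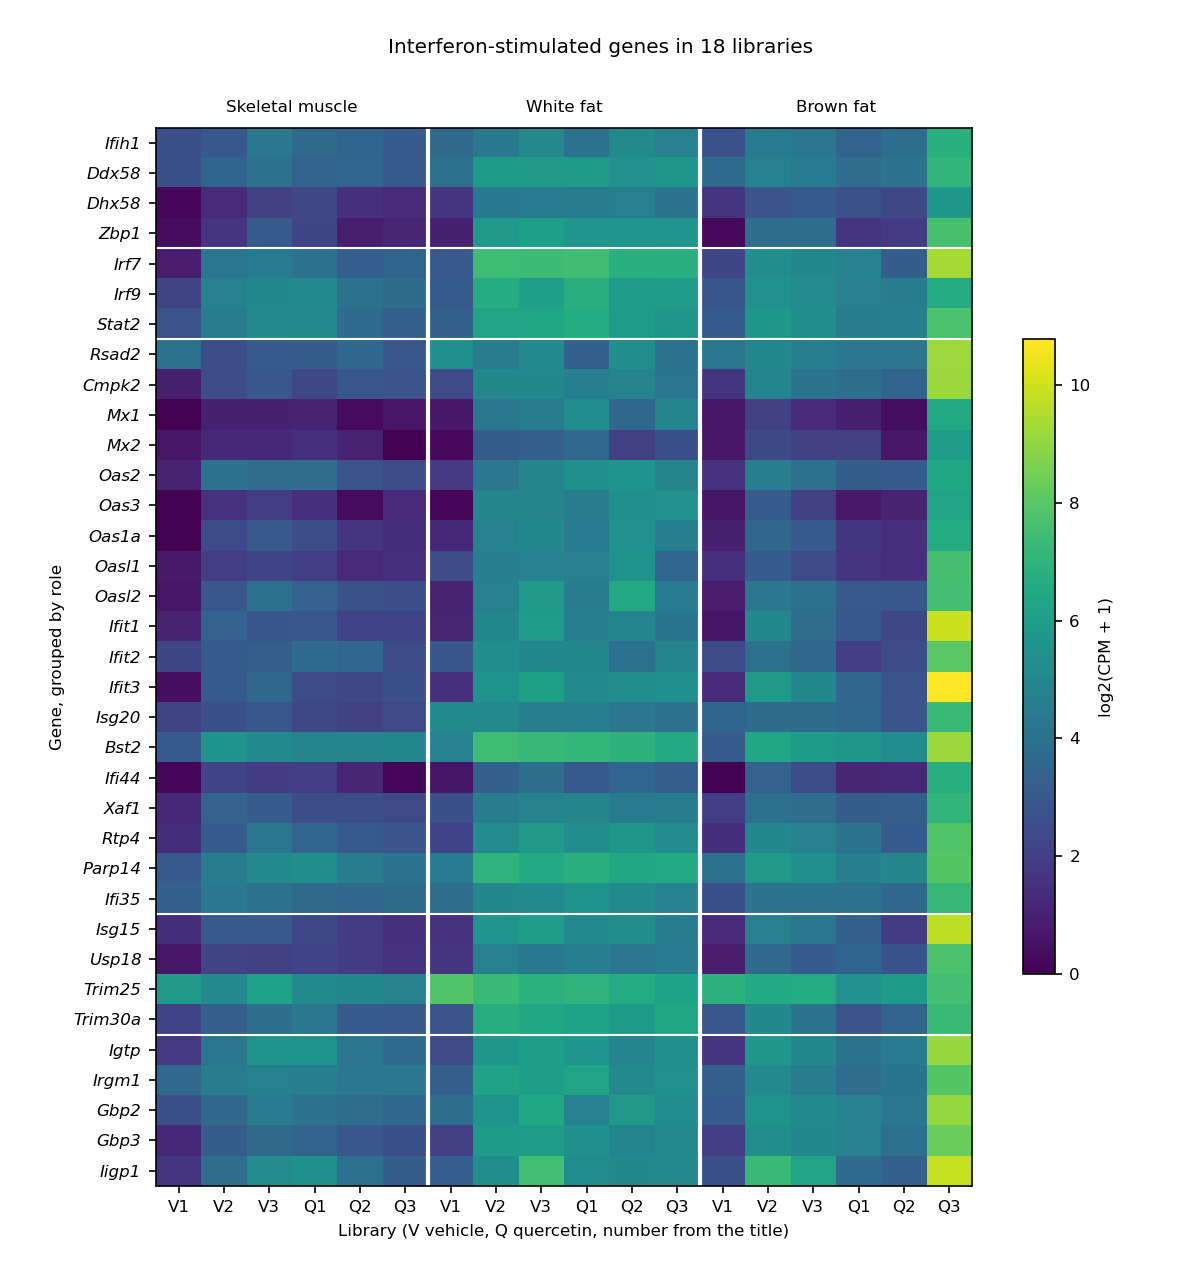
Heat map of log2(CPM + 1) for the 35 genes in rows, grouped by role from sensors at the top to interferon-inducible GTPases at the bottom, and the 18 libraries in columns (V vehicle, Q quercetin). The first column of each tissue is dark for most genes, the last column of brown fat is bright, and Trim25 is a row that stays bright in vehicle 1, at 233 CPM in white fat.

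BAT quercetin 3 was at the other extreme. Every one of the 35 members was highest in that library among the 6 of BAT, where 28.7% of all tested genes were. In 33 of 35 it exceeded 3 times the highest of the other 5 libraries, as did 4.08% of all tested genes. The exceptions were Trim25 at 1.55 times and Irf9, the DNA-binding subunit of the interferon-activated complex, with 96.6 CPM against at most 42.6 CPM. Over the 35 members the ratio of BAT quercetin 3 to the highest other library had a median of 10.2 and went up to 33.6. The summed CPM of the members was 11920, against 271, 1142 and 822 in the 3 vehicle libraries and 470 and 408 in quercetin 1 and 2. The 35 genes are not replicates of each other, they were chosen with earlier results of these data known, and this is 1 library.

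Ifit3, Ifit1, Iigp1 and Isg15 had the highest CPM of the 35 members there. Ifit3 stood at 1.53, 53.5 and 31.3 CPM in BAT vehicle 1, 2 and 3, and at 10.9, 6.01 and 1751 CPM in quercetin 1, 2 and 3. Ifit1 followed with 0.511, 31.7 and 13.2 CPM in vehicle and 6.81, 3.87 and 979 CPM in quercetin. Isg15 had 1.43, 25.1 and 17.97 CPM in vehicle and 8.99, 2.65 and 844 CPM in quercetin. In all 3 genes quercetin 1 and 2 lay between vehicle 1 and the other vehicle libraries. Ifit3 shares near-identical sequence with Ifit3b, which itself had 343 CPM in BAT quercetin 3 and at most 9.21 CPM in the other BAT libraries, so the split of reads between the 2 is uncertain. The same holds for Oas1a and its copy Oas1g.

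Members of every role were high in that library. Among the transcription factors, Irf7 had 643 CPM, against 3.78, 38.1 and 31.8 CPM in the vehicle libraries and 26.3 and 8.05 CPM in quercetin 1 and 2. Stat2, which joins Irf9 in the activated complex, had 207 CPM, against 7.66, 52.5 and 38.4 CPM in vehicle and 21.9 and 23.1 CPM in quercetin. The sensors summed to 499 CPM against 20.6 to 65.4 CPM in the other 5 libraries. Of the effectors, Rsad2 had 582 CPM against 17.9, 29.5 and 24.5 CPM in vehicle and 18.9 and 18.1 CPM in quercetin, so its other 5 libraries were close together. The neighbouring gene Cmpk2, a mitochondrial nucleotide kinase, had 575 CPM against 2.14 to 28.4 CPM. Usp18, the protease that removes Isg15 from proteins and restrains the interferon receptor, had 204 CPM against 0.817 to 11.8 CPM. The 5 GTPases, which take part in defence against intracellular parasites and bacteria, summed to 2574 CPM against 26.3 to 326 CPM. Iigp1, one of them, had 916 CPM, but also reached 157 CPM in BAT vehicle 2.

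The ISRE core did not separate the members in this respect. The ratio of BAT quercetin 3 to the median of the other 5 libraries had a median of 21.1 (8.37 to 161) over the 15 members with a match and 24.4 (1.96 to 88.6) over the 11 members with a window and no match. Trim25 had the lowest of these ratios, 1.96, and Ifit1 and Isg15 were among the matched members.

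Values of other cell types moved with this library. Its muscle marker sum, 32255 CPM, was below all 6 SKM libraries and above the 5.40 to 4917 CPM of the other 5 BAT libraries. The 6 neutrophil markers summed to 565 CPM against 24.8 to 97.98 CPM in the other 5 BAT libraries. The 8 macrophage markers, at 343 CPM, lay within the range of 186 to 679 CPM of the others. B and T cell markers stood at 3.93 and 12.4 CPM, against 0.825 to 2.47 and 1.23 to 3.48 CPM. Adipocyte markers, at 17385 CPM, lay within the range of 14834 to 17863 CPM. The part of these cells in the member levels was not tested.

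**Figure D3:**
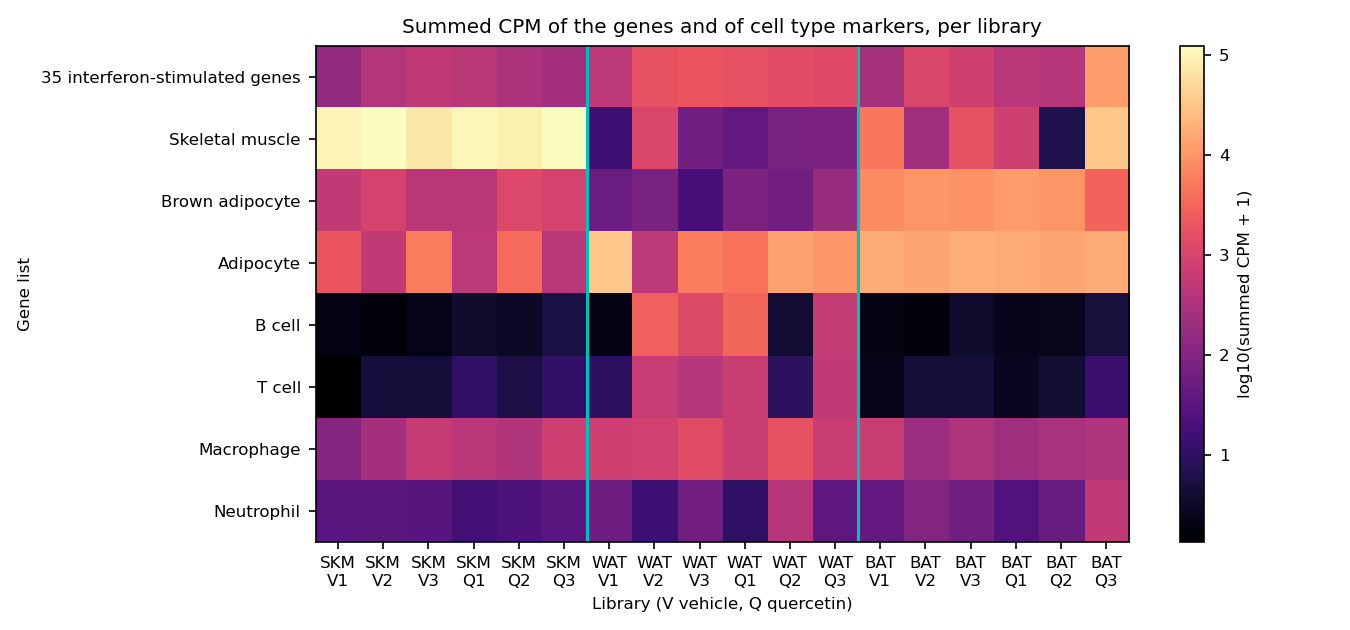
Summed CPM, on a log10(CPM + 1) colour scale, of the 35 interferon-stimulated genes in the top row and of 7 lists of cell type markers below it, in each of the 18 libraries (V vehicle, Q quercetin). The brightest cell of the top row is brown fat quercetin 3 at 11920 CPM, which also has 32255 CPM of muscle markers.

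The design asks first whether quercetin changed these genes. No member passed in any tissue in edgeR's quasi-likelihood F test with Benjamini-Hochberg adjustment over all genes tested in that tissue at 0.05, and no gene did. Called were 0 of 34 members in SKM (0.0% of 13562 genes tested), 0 of 35 in WAT (0.0% of 14919) and 0 of 35 in BAT (0.0% of 13274). At an unadjusted p under 0.05 there were 1 member in SKM, 0 in WAT and 0 in BAT, against 406, 122 and 241 genes. DESeq2 called 0 members in each tissue, and it called 7 genes in WAT and 2 in BAT. In BAT it gave a p-value for only 14 of 35 members, so its 0 calls there were no test of the others. No member had all 3 quercetin libraries above all 3 vehicle libraries in SKM (5.11% of all tested genes), WAT (2.08%) or BAT (3.17%). None had them all below, in SKM (4.26%), WAT (2.51%) or BAT (2.86%).

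In SKM, 11 of 34 members had higher and 23 had lower estimates with quercetin, with a median log2 fold change of -0.15, against -0.03 over all genes tested. Trim25, with the values given above, had the smallest p of the members. Its log2 fold change was -0.82 ± 0.34 (SE), with a 95% interval of -1.61 to -0.03 and an adjusted p of 0.910 in edgeR with Benjamini-Hochberg adjustment. Quercetin 1 lay above vehicle 2, so the arms overlapped. Isg15 had 1.66, 6.98 and 7.001 CPM in vehicle and 4.12, 2.79 and 1.81 CPM in quercetin, a log2 fold change of -0.83 ± 0.62. Here vehicle 1 was the lowest library and the other 2 vehicle libraries the highest. Isg20 followed at -0.42 ± 0.41, Ifit2 at 0.45 ± 0.50 and Ifi35, a leucine zipper protein, at -0.28 ± 0.36. Among Irf7, Stat2, Ifit3, Oas2, Bst2 and Gbp2 the log2 fold changes lay between -0.49 and 0.11, each smaller than its SE. The sign of the median depended on single libraries. It was -0.52 without vehicle 1, when 3 of 35 estimates were positive, and 0.35 without vehicle 3, when 25 of 34 were.

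In WAT, 27 of 35 members had higher and 8 had lower estimates with quercetin, and the median log2 fold change was 0.28, against -0.01 over all genes tested. Without vehicle 1 the median was -0.28 and 10 of 35 estimates were positive. Within flow cell H7H2WDSXX, which leaves out vehicle 1 and quercetin 2, it was -0.30 and 7 of 35 were positive. Oas2, one of the synthetases whose product activates RNase L, had 2.45, 18.3 and 28.9 CPM in vehicle and 41.2, 46.7 and 28.6 CPM in quercetin. Its log2 fold change was 1.29 ± 0.79 (SE), with an adjusted p of 0.9998 in edgeR with Benjamini-Hochberg adjustment, and vehicle 3 lay within the range of the quercetin libraries. Isg20 and Trim25, which with Rsad2 were the members highest in vehicle 1, had log2 fold changes of -0.62 ± 0.30 and -0.77 ± 0.39. Iigp1 was at 8.43, 39.7 and 184 CPM in vehicle and 36.5, 31.9 and 33.1 CPM in quercetin, a log2 fold change of -1.15 ± 0.98. Its quercetin libraries were close together while the vehicle libraries spanned the whole range. Ifi35 had 0.46 ± 0.39, and Mx1, with 0.640, 18.4 and 22.7 CPM against 36.4, 11.6 and 27.7 CPM, had 0.91 ± 1.06. The other genes followed throughout, Irf7, Stat2, Ifit3, Isg15, Bst2 and Gbp2, had log2 fold changes between -0.21 and 0.41, each smaller than its SE.

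In BAT, 34 of 35 members had a higher estimate with quercetin, with a median log2 fold change of 2.38 against 0.05 over all genes tested, and this rested on 1 library. Without quercetin 3 the median was -0.58 and 2 of 35 estimates were positive. With vehicle 1 left out too, which was added after the values were seen, the median was -1.06 and 0 of 35 were positive. No member was called in either case. For 33 of 35 members quercetin 1 and 2 were both below vehicle 2 and 3, which held for 14.4% of all tested genes. These 4 libraries were picked with the values known, and the difference between them was given no test of its own.

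The BAT members with the smallest p were Rsad2, Usp18, Oasl1, Mx1 and Cmpk2. Rsad2 had a log2 fold change of 3.11 ± 1.35 (SE), with a 95% interval of -0.05 to 6.27 and an adjusted p of 0.977 in edgeR with Benjamini-Hochberg adjustment. Without quercetin 3 its log2 fold change was -0.39. Usp18 had 3.43 ± 1.52 and Cmpk2 had 3.65 ± 1.70. Mx1, at 0.613, 3.16 and 1.46 CPM in vehicle and 0.954, 0.306 and 92.1 CPM in quercetin, had 4.17 ± 1.93. Oasl1, a relative of the synthetases that restrains Irf7 translation, had 3.82 ± 1.76. Isg15 and Ifit3 had larger but wider estimates, 4.26 ± 2.09 and 4.35 ± 2.23, which without quercetin 3 were -1.39 and -1.81. Irf7 had 3.20 ± 1.62, Gbp2 had 2.78 ± 1.37 and Bst2 had 2.17 ± 1.24. Stat2 and Oas2 had 1.35 ± 1.04 and 1.33 ± 1.17. Trim25 was the member with a negative estimate, -0.13.

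**Figure D4:**
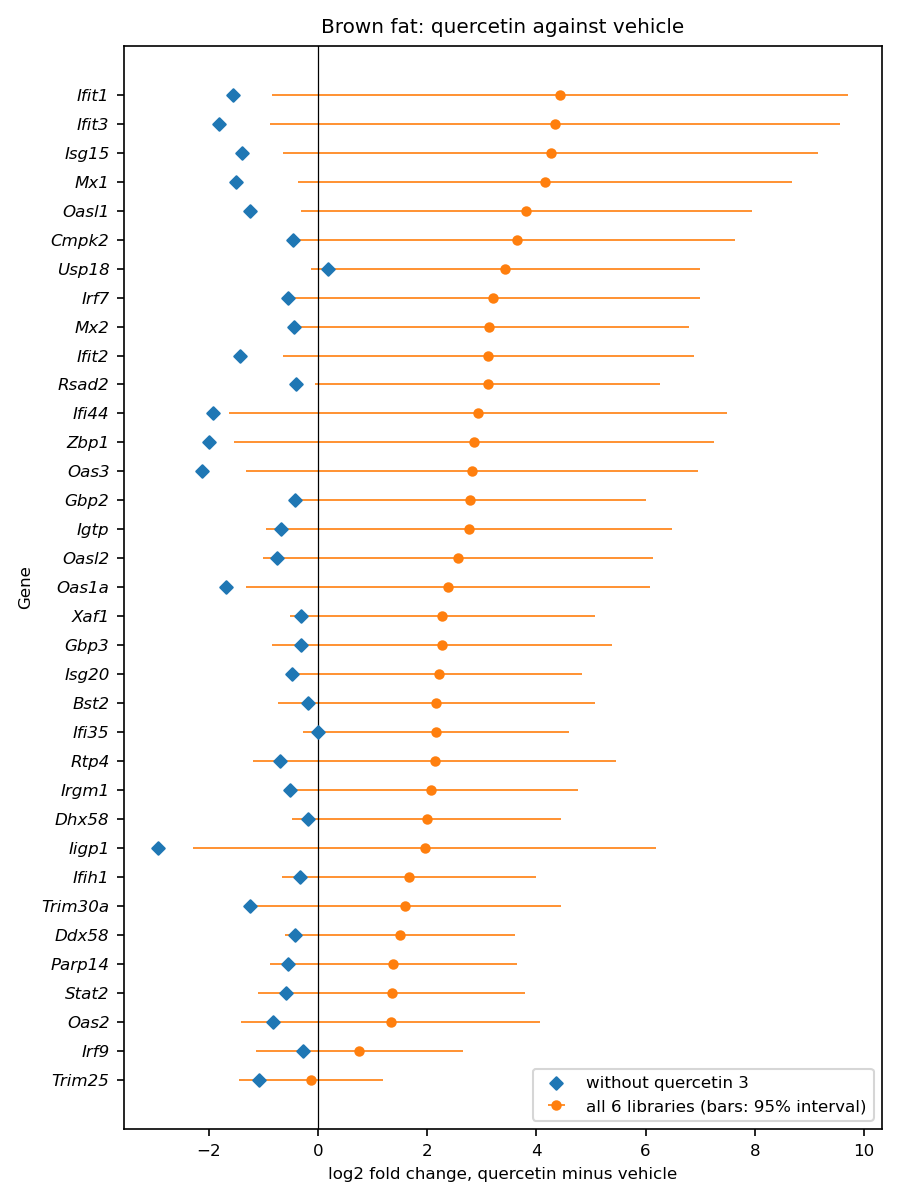
Log2 fold change of quercetin minus vehicle in brown fat for the 35 genes, as orange circles with 95% intervals from all 6 libraries and as blue diamonds without quercetin 3. The circles lie right of 0 for 34 of 35 genes, with intervals that include 0, and the diamonds lie left of 0 for all but 2.

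Whether the quercetin difference itself differed between tissues was tested over all 18 libraries. Called were 0 of 35 members and 0.0% of 16388 genes in the edgeR interaction test with Benjamini-Hochberg adjustment, and DESeq2 called 0 of either. Of the members, 2 had an unadjusted p under 0.05, Rsad2 at 0.041 and Isg20 at 0.042, both with an adjusted p of 1 in edgeR. The 34 members tested throughout, averaged on the log2 CPM scale, gave 1.04, 3.07 and 3.55 in SKM vehicle 1, 2 and 3, 2.35, 5.35 and 5.58 in WAT vehicle and 1.70, 4.62 and 4.17 in BAT vehicle. The quercetin libraries gave 3.28, 2.60 and 2.33 in SKM, 5.22, 5.21 and 4.94 in WAT, and 3.29, 2.99 and 7.88 in BAT. Leaving aside vehicle 1 and BAT quercetin 3, a choice made with the values known, every WAT library lay above every BAT and SKM library. BAT and SKM were not fully apart. BAT vehicle 2 and 3 lay above all SKM libraries, but BAT quercetin 1 and 2 lay within the range of SKM.

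The tissues were compared over both arms. In WAT against SKM, 21 of 35 members were higher and 0 lower in edgeR's quasi-likelihood test with Benjamini-Hochberg adjustment, where 28.6% of all genes tested were higher and 21.7% lower. The median log2 difference of the members was 2.25. All 3 transcription factors, all 4 genes of the ubiquitin group, 3 of 4 sensors and 10 of 19 effectors were called, but 1 of 5 GTPases, Gbp3. Mx1 had the highest log2 difference among the called members, 4.80 ± 1.22 (SE), followed by Oas3 at 4.23 ± 1.26, Zbp1 at 4.13 ± 1.24, Irf7 at 3.36 ± 1.02 and Oasl1 at 3.30 ± 0.96. Isg15 had 3.14 ± 1.12, Bst2 had 2.02 ± 0.71 and Stat2 had 1.72 ± 0.69, all with an adjusted p under the threshold. Gbp2, Ifit3 and Oas2 did not pass, with log2 differences of 1.76 ± 0.73, 2.81 ± 1.21 and 1.501 ± 0.78.

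The count of members called in WAT against SKM moved with the libraries used. It was 12 without SKM vehicle 1, SKM quercetin 2, SKM quercetin 3 or WAT vehicle 3, each alone, and 13 without WAT vehicle 2 or WAT quercetin 1. It was 6 in the vehicle libraries alone, where all 35 estimates were still positive. Over all genes, 8251 were called in either direction with all libraries, and 7194 to 8843 with 1 library left out. Markers of lymphocytes moved with the same contrast: 4 of the WAT libraries held 612 to 3286 CPM of B cell markers, and SKM libraries held at most 4.60 CPM. With only the 2 WAT libraries from flow cell H7GKJDSXX, which had few of these markers and were set apart after the values were seen, 2 members were called, 31 of 35 estimates were positive and the median log2 difference was 0.97. WAT vehicle 1 is 1 of these 2. The part of lymphocytes in the level of the members in WAT was not tested.

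In BAT against SKM, 15 members were higher and 0 lower, where 13.9% of all genes tested were higher and 13.3% lower, with a median log2 difference of 2.36. The highest among the called were Ifit3 at 4.56 ± 1.30 (SE), Isg15 at 4.03 ± 1.16, Ifit1 at 3.79 ± 1.24, Cmpk2 at 3.53 ± 0.93 and Mx1 at 3.44 ± 1.19, in edgeR with Benjamini-Hochberg adjustment. Gbp2 was called at 2.51 ± 0.75. Irf7 at 2.61 ± 0.99, Bst2 at 1.82 ± 0.71, Stat2 at 1.45 ± 0.68 and Oas2 at 1.26 ± 0.77 did not pass. Without BAT quercetin 3 the count was 3 and the median 0.69. It was 9 without SKM vehicle 1, SKM vehicle 2 or BAT vehicle 2, each alone, 6 without SKM quercetin 3, and 0 in the vehicle libraries alone. With vehicle 1 of every tissue and BAT quercetin 3 left out together, also added after the values were seen, 13 members were called and the median was 0.70. The count over all genes is not given for that fit. It was 4461 in either direction with all libraries, and 3463 to 5097 with 1 library left out.

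In BAT against WAT, 0 members were higher and 0 lower in edgeR, where 18.3% of all genes tested were higher and 22.0% lower. DESeq2 called 0 members too. The median log2 difference was -0.19, and the estimates were divided, with 17 of 35 positive. Without BAT quercetin 3, 15 members were lower in BAT, none was higher, and the median was -1.33. With vehicle 1 of every tissue left out as well, 30 of 35 were lower and the median was -1.35. With only the 2 WAT libraries from flow cell H7GKJDSXX, 0 members were called, but 33 of 35 estimates were positive and the median was 1.35. The last 2 choices of libraries were added after the values were seen. Over all genes, 6604 were called in either direction with all libraries, and 5383 to 7917 with 1 library left out. The share of all genes called lower is not given for the fits with 15 and 30 members. These counts are therefore not read as particular to the members. B cell markers moved with this contrast too, at 612 to 3286 CPM in the other 4 WAT libraries and at most 3.93 CPM in BAT, and their part in the result was not tested. Ifit3 had a log2 difference of 1.75 ± 1.15 and Mx1 of -1.37 ± 1.04, the ends of the range among the 8 genes followed throughout.

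**Figure D5:**
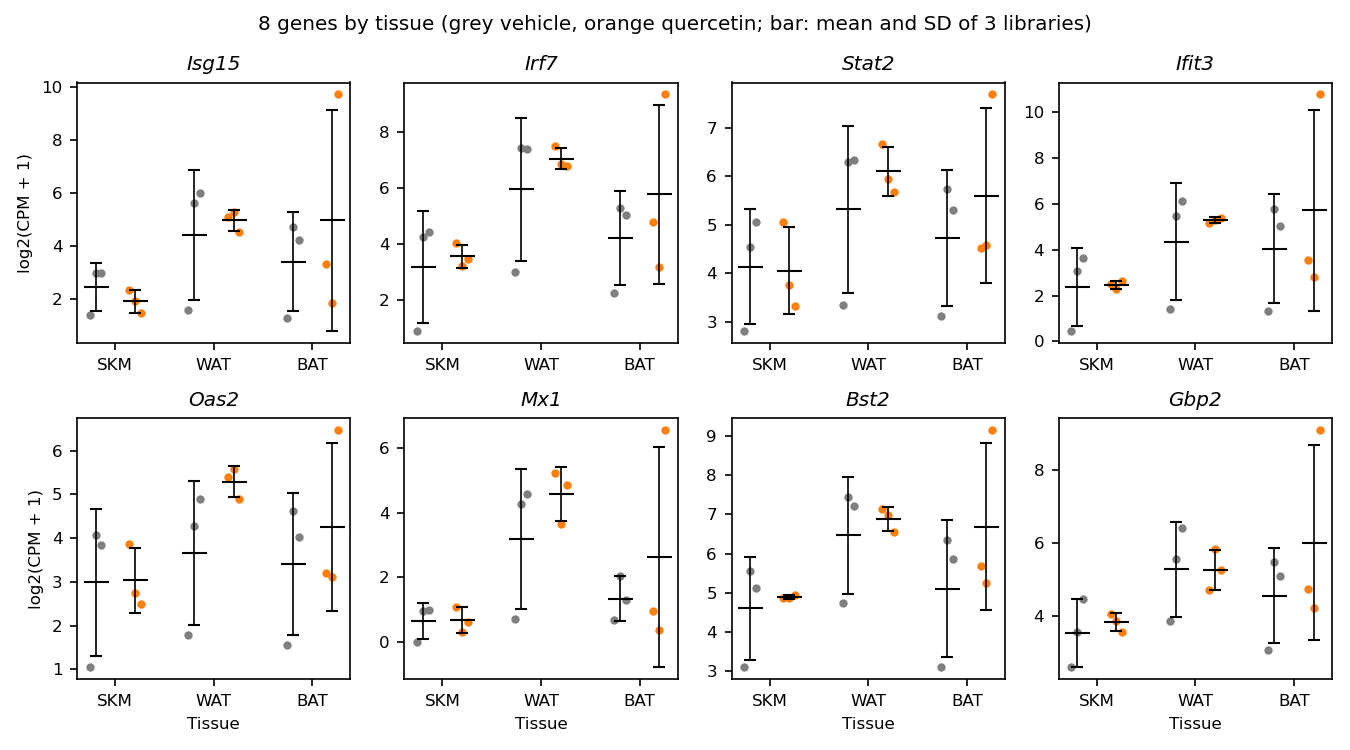
Levels of Isg15, Irf7, Stat2, Ifit3, Oas2, Mx1, Bst2 and Gbp2 as log2(CPM + 1) in each library, by tissue and arm (grey vehicle, orange quercetin), with a bar for the mean and whiskers for the SD of 3 libraries. Each vehicle group has 1 point far below the other 2 for most genes, and brown fat quercetin has 1 point far above, as for Ifit3 at 1751 CPM.

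The rest of the pathway was read from 101 further genes, of which 82, 88 and 85 were tested in SKM, WAT and BAT. None was called for quercetin in any tissue by edgeR, and at an unadjusted p under 0.05 there were 0, 0 and 2. DESeq2 called 0 in each tissue. The interferons themselves were scarce: of 12 ligand genes, 11 had no count in any SKM library, 9 in any WAT library and 11 in any BAT library, and none could be tested. Ifng, the interferon gamma gene of lymphocytes, had 0.515, 0.151, 0.948 and 0.211 CPM in WAT vehicle 2 and 3 and quercetin 1 and 3. These are the 4 WAT libraries with B and T cell markers, and the other 14 libraries had no count. Its vehicle 3 value lay under the limit that a count of 0 allows there, 0.227 CPM, and its quercetin 3 value lay on that limit, 0.211 CPM. Ifnb1, which encodes interferon beta, had 1 count in BAT quercetin 3, 1 in BAT quercetin 2 and 1 in WAT vehicle 3, under the limit that a count of 0 allows in each.

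Of the 6 receptor genes, 3 were highest in BAT quercetin 3, where 28.7% of all tested genes were. Ifnar1 and Ifnar2, the chains of the type I receptor, stood at 51.0 and 52.0 CPM there, within the 40.3 to 62.7 and 37.1 to 84.1 CPM of the other BAT libraries. All 5 regulatory factors were highest in that library, as were 57 of 58 other interferon-stimulated genes, Ifi27 being the exception. Cxcl10, a chemokine that draws T cells, had 432 CPM against 0.561 to 5.36 CPM. Its log2 fold change with quercetin was 5.83 ± 2.40 (SE). That of the chemokine Ccl5 was 2.68 ± 1.08 and that of Il10rb, a shared receptor chain, was 0.89 ± 0.38. All had an adjusted p of 0.977 in edgeR with Benjamini-Hochberg adjustment. These estimates include quercetin 3 and are not given without it. Of the 58, vehicle 1 was the lowest library for 43 in SKM, 47 in WAT and 38 in BAT, against 38.0%, 33.2% and 23.8% of all tested genes.

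In SKM the smallest p-values of the pathway were those of the kinase Tbk1 at -0.64 ± 0.36, the feedback inhibitor Socs1 at 1.12 ± 0.67 and the GTPase Tgtp1 at 1.31 ± 0.90 on the log2 scale. In WAT they were those of Ifi27 at 1.13 ± 0.46, Eif2ak2, the RNA-activated kinase that halts translation, at 0.47 ± 0.33 and the kinase Ikbke at 0.86 ± 0.61. The median log2 fold change of the tested pathway genes was 0.06 in SKM, 0.16 in WAT and 1.20 in BAT. Over all genes tested it was -0.03, -0.01 and 0.05. The BAT value includes quercetin 3, the library in which 57 of 58 other interferon-stimulated genes were highest, and is not given without it.

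Some members share bases with other genes, and the sources used do not give the strand setting of the counting. Of the exon bases, 16.8% were shared with another gene for Ifi35, 13.9% for Rtp4, a chaperone of receptors, 8.01% for Igtp, 4.44% for Usp18 and 4.31% for Dhx58, in the GENCODE annotation of GRCm38. Ifi35, Usp18 and Dhx58 share them with a gene on the other strand, and whether the counting told the 2 strands apart there is not known.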

How the data were processed

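Gene counts were deposited by the authors for 18 libraries, as whole numbers with no scaling. HISAT2, HTSeq and DESeq2 are named, per the submitters' processing notes, with the build mm10 and no versions. No source used names the annotation release or strand setting. Per the labels' protocols, RNA came from TRIzol extraction and the library kit was NEBNext Ultra. Of each file, 53465 identifiers were used, and 5 summary lines stayed out of library sizes (no feature 2.53 to 9.11%, ambiguous 6.47 to 9.84%). Symbols were found for 53274 of these identifiers in a mouse gene name reference, and the GENCODE annotation of GRCm38 gave coordinates and exon lengths. Replicates differed beyond counting noise in all 18 pairs within groups (chi-square over degrees of freedom at least 29.8).

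Each tissue was fitted alone with edgeR 4.0.16 in R 4.3.3 (TMM, quasi-likelihood F test, two-sided, Benjamini-Hochberg over all genes tested, 0.05), after filterByExpr with min.count 10 and min.total.count 15. Tissue contrasts and the interaction used 1 fit of all 18 libraries in 6 groups. With 3 against 3 libraries, an exact permutation test of 1 gene cannot go below p = 0.1. Alternatives were DESeq2 1.42.0, RLE factors, no filter, the replicate block, flow cell, vehicle libraries only and leaving out each library. Scripts were tested on simulated data. Test values are printed for the 5 members with the smallest p in each quercetin comparison, the 5 largest called differences between tissues, and a panel of 8 genes. Other members named were chosen after their values were seen. The members and lists were chosen with earlier results of these data known.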

Additional observations from a re-analysis of the deposited data

How the results depend on the processing

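DESeq2, RLE factors and no filter on low counts left 0 members called for quercetin in each tissue, though in BAT DESeq2 gave only 14 members a p-value. Over all genes the quercetin calls were 0, but 32 in SKM with no filter, 7 in WAT and 2 in BAT with DESeq2, and 1 in BAT with vehicle 1 and quercetin 3 left out, and 0 to 1 in BAT when each library was left out. The replicate block, which pairs libraries by a number that the labels do not tie to a mouse, changed no quercetin call. Same-numbered vehicle and quercetin libraries of a tissue had correlations of -0.73 to 0.31, and 2 of 18 correlated best with their own number. Between tissues of 1 arm, same-numbered vehicle libraries had correlations of 0.053 to 0.30 and 17 of 18 comparisons were best with the own number. In quercetin these were -0.14 to 0.15 and 9 of 18. This is a hint from the data that vehicle numbers are linked across tissues. The 18 comparisons read each pair of tissues from both sides and are not independent, so their count overstates the evidence. Under the block the SKM log2 fold changes of Irf7, Ifit3 and Bst2 turned to 0.22, 0.11 and 0.27, and those of Isg15 and Gbp2 in WAT to 0.50 and 0.051. With the block 26 members were called in WAT against SKM and 9 in BAT against SKM, counts given without those of all genes. Isg15 in BAT against WAT was then -0.20. With flow cell as a term Isg15 in WAT was 0.33, and within flow cell H7H2WDSXX Irf7, Stat2, Ifit3 and Bst2 in WAT were -0.22, -0.050, -0.56 and -0.45 and Stat2 in SKM was 0.15.

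Without vehicle 1 and quercetin 3, the BAT log2 fold changes of quercetin were -0.59 for Rsad2, -0.38 for Usp18, -1.65 for Oasl1, -1.96 for Mx1, -1.005 for Cmpk2, -1.97 for Isg15, -1.09 for Irf7, -1.06 for Stat2, -2.39 for Ifit3, -1.35 for Oas2, -0.71 for Bst2 and -0.90 for Gbp2. Leaving out each library in turn gave, in BAT, -0.39 to 3.65 for Rsad2, -1.25 to 4.42 for Oasl1, -1.51 to 4.95 for Mx1, -0.46 to 4.44 for Cmpk2, -1.39 to 4.93 for Isg15, -0.55 to 3.75 for Irf7, -0.58 to 1.91 for Stat2, -1.81 to 5.21 for Ifit3, -0.82 to 2.04 for Oas2, -0.18 to 2.80 for Bst2 and -0.42 to 3.31 for Gbp2, each lowest without quercetin 3. In SKM it gave -0.77 to 0.25 for Irf7, -0.92 to 0.36 for Stat2, -1.04 to 0.26 for Ifit3, -0.97 to 0.16 for Oas2, -0.48 to 0.47 for Bst2 and -0.25 to 0.74 for Gbp2. In WAT it gave -1.68 to 0.59 for Iigp1, -0.77 to 0.46 for Isg15, -0.28 to 0.71 for Irf7, -0.10 to 0.81 for Stat2, -0.51 to 0.87 for Ifit3, -0.35 to 0.46 for Bst2 and -0.63 to 0.52 for Gbp2, each lowest without vehicle 1.

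Of the tissue contrasts, WAT against SKM called 12 to 31 members and 7194 to 8843 genes with 1 library left out. It called 6 members and 3091 genes in vehicle alone (8251 in all libraries), and 2 and 4038 with white fat from flow cell H7GKJDSXX only. BAT against SKM called 3 to 22 members and 3463 to 5097 genes with 1 library left out. In vehicle alone it called 0 members and 871 genes (4461 in all). BAT against WAT called 0 to 15 members and 5383 to 7917 genes with 1 library left out. It called 1 member and 1442 genes in vehicle alone (6604 in all), and 1357 genes with white fat from flow cell H7GKJDSXX only. Without vehicle 1 of every tissue and BAT quercetin 3 it called 30 members, a count given without that of all genes. In BAT against WAT with 1 library left out, Isg15 ranged over -1.86 to 1.23, Stat2 -1.18 to 0.00051, Ifit3 -1.27 to 2.15, Oas2 -1.27 to 0.11, Bst2 -1.33 to 0.075 and Gbp2 -0.80 to 1.12. In vehicle alone Isg15, Ifit3 and Gbp2 were -1.39, -0.45 and -0.79, and without vehicle 1 of every tissue and BAT quercetin 3 they were -1.88, -1.27 and -0.78. With white fat from flow cell H7GKJDSXX only, Irf7, Stat2, Oas2, Mx1 and Bst2 were 1.35, 1.12, 0.97, 1.38 and 0.81. No named member turned its sign in WAT or BAT against SKM over 286 and 260 values. The causes of these shifts were not tested. With 3 libraries a group and 1 apart from the rest, intervals spanned several log2 units, and levels of a few counts set the limit in SKM vehicle 1.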
